A study of Mus musculus with 24 samples.

Results

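Syndecans and glypicans are the families of heparan sulfate proteoglycans that sit in or on the cell membrane. All 10 mouse genes of the families, the 4 syndecans Sdc1 to Sdc4 and the 6 glypicans Gpc1 to Gpc6, were taken by name from a count table of 53379 genes. All 10 passed the filter on low counts and are among the 37598 genes tested. A member's count in a library ranged from 3 to 9966 reads.

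The data are mRNAseq libraries from sorted nuclei of the right hippocampus of adult male C57/BL6N mice, which arrived at 8 weeks of age and were acclimatised for 4 weeks. KA mice received kainic acid, an agonist of ionotropic glutamate receptors, in the deep cortex above the right hippocampus and went through a status epilepticus, and mice without convulsive seizures were not used. SH mice had the same anaesthesia, surgery and analgesia with 0.9% NaCl in place of kainic acid. Tissue was taken at 24 hours. Hippocampi of 8 mice per treatment were combined into 3 pools, of 4 mice in replicate 1 and of 2 mice in replicates 2 and 3, and nuclei of each pool were sorted by the neuronal antigen NeuN. NeuN+ nuclei are called neurons and NeuN- nuclei glia, so that there are 4 groups of 3 libraries (SH neurons, KA neurons, SH glia and KA glia). The NeuN- gate holds every nucleus without NeuN, including vascular and immune cells.

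A syndecan is a single-pass membrane protein with heparan sulfate chains on its outer part and a short cytoplasmic tail that binds adaptor and signalling proteins. A glypican has no tail and is held in the membrane by a glycosylphosphatidylinositol anchor. Through their chains, both families bind growth factors, chemokines and matrix proteins, and in the brain they take part in the growth of axons, the formation of synapses and the response of glia to injury. Proteases shed the outer part of syndecans, the lipase Notum cuts glypicans loose, and the sulfatases Sulf1 and Sulf2 edit the chains outside the cell.

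Total counts ranged from 7769400 to 40364768 per library. Expression is given in CPM, the count scaled to the TMM library size, with SD over the 3 pools of a group (n = 3), and logFC is the log2 ratio from the fitted model. The FDR is the p value of the quasi-likelihood test of edgeR after Benjamini-Hochberg adjustment over all 37598 genes. Its threshold was 0.25 for KA against SH and 0.05 for NeuN+ against NeuN-. Libraries with the same replicate number deviated together, so the calls of a second fit, in which the replicate number or the pool is a block, are given beside those of the main one where they differ. The 2 glia libraries SH replicate 1 and KA replicate 2 were made from 0.05 ng RNA with 15 PCR cycles and the other 10 from 1 ng with 10 cycles. The 4 replicate 3 libraries hold 36165 to 42160 genes with a count, against 40660 to 47748 in the others. Of 8 neuronal markers, 7 in SH and 8 in KA were higher in NeuN+, and of 8 astrocytic, 7 microglial and 6 oligodendrocytic markers 8, 7 and 6 in SH and 6, 7 and 6 in KA were lower in NeuN+.

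Sdc1, a syndecan known from epithelia and plasma cells, rose in neurons and in glia after KA. Per kb of exon, it was the lowest syndecan in every SH library of either fraction. In SH neurons its level was 1.88, 3.96 and 2.49 CPM in replicates 1, 2 and 3, and in KA neurons 21.5, 31.1 and 47.3 CPM. Every KA library lay above every SH library. The means were 2.78 ± 1.07 and 33.3 ± 13.0 CPM (SD, n = 3), and the logFC was 3.58 (standard error 0.43, FDR 0.00477). Leaving out any 1 of the 6 libraries of neurons kept the call, with logFC between 3.24 and 3.93, and without the 4 replicate 3 libraries the logFC was 3.16 (FDR 0.159).

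In glia the level of Sdc1 was 5.55, 6.18 and 4.60 CPM in SH and 12.5, 18.1 and 23.6 CPM in KA. Again the groups did not overlap. The logFC was 1.73 (standard error 0.40, FDR 0.126 with edgeR). This call is less secure than that in neurons. It was lost without SH glia replicate 3 (FDR 0.579), KA glia replicate 2 (FDR 0.478) or KA glia replicate 3 (FDR 0.293), and without both low-input libraries the logFC was 1.69 with an FDR of 1.0.

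Sdc1 was the only member that passed the threshold upwards, 1 of 10 in neurons and 1 of 10 in glia, where 0.279% and 0.442% of all genes tested did. No member passed it downwards, 0 of 10 in either cell type, against 0.0612% and 0.306% of all genes tested. The members were chosen with earlier results of these data known, so setting these counts beside the shares is no test. At an unadjusted p under 0.05, edgeR placed 2 members higher and 0 lower in neurons, where 3.2% of all genes tested had such a p, and 1 higher and 2 lower in glia, where 4.79% had. DESeq2 called 1 higher and 0 lower in neurons and 1 higher and 2 lower in glia (Sdc2 and Gpc5). Sdc4 is not among these counts, since DESeq2 gave it no p value in any comparison. Over all 37598 genes tested, DESeq2 called 292 higher and 140 lower in neurons and 364 higher and 602 lower in glia. The median logFC of the members was 0.07 in neurons, beside 0.00 over all genes tested, and -0.12 in glia, beside 0.14.

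**Figure D1:**
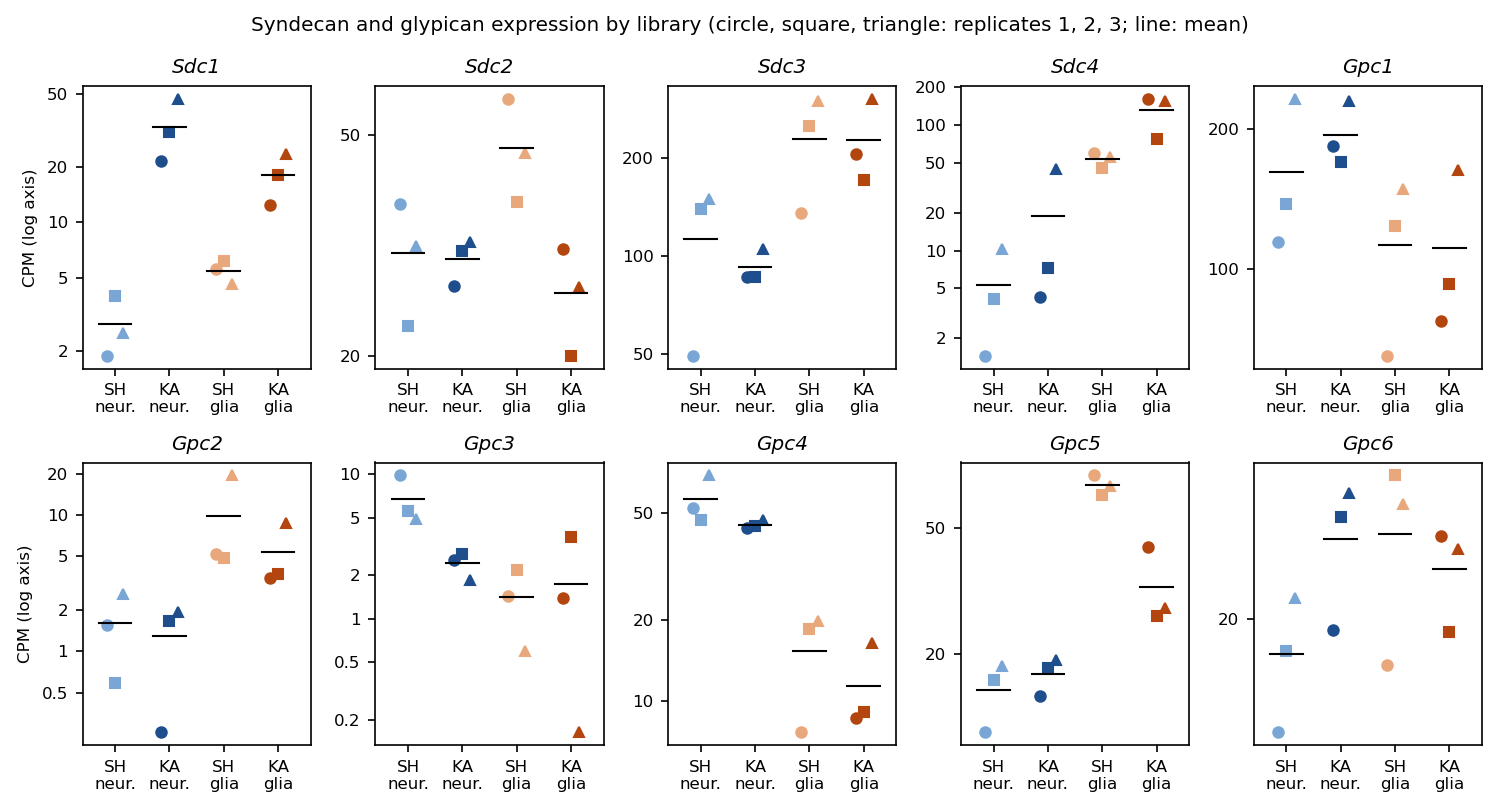
Expression of the 10 genes in CPM (log axes, each panel with its own range) in SH and KA libraries of neurons and glia. Symbols are the replicates and lines the group means of 3 libraries. Sdc1 is separated between SH and KA in both cell types, from 1.88 to 3.96 against 21.5 to 47.3 CPM in neurons and from 4.60 to 6.18 against 12.5 to 23.6 CPM in glia.

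The order of the fractions turned round for Sdc1. In SH, the level in neurons was 33.8%, 64.1% and 54.1% of that in glia of the same pool, and in KA it was 172%, 172% and 200%. Across pools the fractions were separated in SH but overlapped in KA (12.5 to 23.6 CPM in glia, 21.5 to 47.3 CPM in neurons). The logFC of NeuN+ against NeuN- was -0.96 (standard error 0.40, FDR 0.166) in SH and 0.88 (standard error 0.39, FDR 0.216) in KA, neither past 0.05. With the pool as a block both were, at FDR 0.0126 and 0.0217. DESeq2 called Sdc1 lower in NeuN+ in SH and did not call it in KA. The KA effect was larger in neurons by 1.84 on the log2 scale (standard error 0.55, 95% interval 0.67 to 3.02, unadjusted p = 0.00414). After adjustment over all genes tested with edgeR the FDR was 1.0, and with the pool as a block 0.0845. For this difference between cell types, edgeR called 0.0% of all genes tested in either direction (502 genes, 1.34%, had an unadjusted p under 0.05, and DESeq2 called 18 and 16 genes but no member). With the block 0.314% were called with the larger logFC in neurons and 0.157% with the larger logFC in glia, and Sdc1 was the only member among them.

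Each fraction carries some RNA of the other, so the levels of Sdc1 were set beside markers. The summed level of the 8 neuronal markers in KA glia was 8.64%, 14.9% and 23.6% of that in KA neurons of the same pool. Sdc1 in KA glia was at 58.1%, 58.1% and 49.9% of its level in KA neurons. The part of neuronal RNA in the glial level of Sdc1 was not tested. The summed level of the 7 markers of blood leukocytes and plasma cells, among them Jchain and Mzb1, was 19.3, 20.6 and 10.2 CPM in SH neurons and 25.3, 20.1 and 14.5 CPM in KA neurons. In glia it was 69.0, 78.4 and 82.3 CPM in SH and 74.6, 102 and 114 CPM in KA. S100a8, a marker of neutrophils in this list, had 0 counts in every SH glia library.

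Sdc1 lies on chromosome 12 of GRCm38 from 8771323 to 8793715, on the plus strand, and shares no exon base with another gene. Its promoter was looked at because it was the only member called. In RefSeq promoters of GRCm38.p6 (250 bases before to 50 after a gene's start), 7 of the 10 members were matched, and Sdc2, Gpc1 and Gpc6 were not. Both strands were searched for TGANTCA (the AP-1 element), TGACGTCA (the cyclic AMP response element), TTCNNNGAA (the STAT element) and GGGCGG (the GC box), motifs that do not contain each other. None of the first 3 had a match in any of the 7 windows, and 7.81%, 1.79% and 8.30% of all 32851 promoters have one. GC boxes were found in all 7, from 1 in Gpc4 and Gpc5 to 4 in Sdc4 and Gpc3, and in 35.7% of all promoters. Sdc1 has 3, and the stretch with the first 2 is shown with the boxes in capitals, at chr12:8771272-8771301 on the plus strand, from 124 to 95 bases before the RefSeq start:

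Sdc1: aagGGGCGGggcaacccaggGGGCGGggcc

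Sdc4, a widely expressed syndecan of focal adhesions, had a higher level in each KA glia library than in each SH glia library. The gene lies on chromosome 2 from 164424247 to 164443887. It was 60.3, 45.1 and 55.7 CPM in SH glia and 162, 76.7 and 157 CPM in KA glia. The groups did not overlap, and the low-input KA replicate 2 was the lowest of the KA libraries. The logFC of 1.29 (standard error 0.71) had an edgeR FDR of 1.0 without the block and of 0.016 with it (logFC 1.23, standard error 0.27).

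In neurons Sdc4 was at 1.45, 4.09 and 10.4 CPM in SH and at 4.27, 7.25 and 44.9 CPM in KA. The SH and KA ranges overlap, but within each replicate number KA was above SH. The logFC was 1.82 (standard error 0.73, unadjusted p = 0.0242, edgeR FDR 1.0), and 1.51 with the block (standard error 0.30, FDR 0.0114). Most of the mean came from KA neurons replicate 3, without which the logFC was 0.12, and without SH neurons replicate 3 it was 2.75. Without all replicate 3 libraries the logFC was 1.05. Sdc4 was called in neurons with the block and in none of these fits without it. Astrocytic markers in neurons moved with the replicates. Their sum over 8 genes was 191, 199 and 571 CPM in SH neurons and 205, 274 and 476 CPM in KA neurons. In KA neurons this was 12.7%, 35.3% and 50.5% of the sum in glia of the same pool, and Sdc4 was at 2.64%, 9.46% and 28.7% of its level in glia. The part of astrocytic RNA in the neuronal level of Sdc4 was not tested.

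Sdc2 (chromosome 15 from 32920723 to 33034935) and Gpc5 (chromosome 14 from 115092215 to 116525179) were lower in KA glia than in SH glia. Gpc5, a glypican found in astrocytes, was at 73.4, 63.5 and 67.8 CPM in SH glia and at 43.5, 26.5 and 28.0 CPM in KA glia. Its logFC was -1.06 (standard error 0.31, FDR 0.332, and 0.0204 with the block). Sdc2, the syndecan of dendritic spines, was at 58.0, 37.8 and 46.4 CPM in SH glia and at 31.2, 20.0 and 26.7 CPM in KA glia. Its logFC was -0.87 (standard error 0.31, FDR 0.655, and 0.0923 with the block). Neither pair of groups overlapped. In neurons the same genes differed little, Gpc5 from 11.4 to 18.5 CPM in SH and from 14.8 to 19.2 CPM in KA, and Sdc2 from 22.7 to 37.5 and from 26.7 to 32.1 CPM. Their logFC in neurons was 0.16 (95% interval -0.49 to 0.81) and -0.03 (95% interval -0.68 to 0.62). The difference between the cell types was 1.23 for Gpc5 (unadjusted p = 0.0122, edgeR FDR 1.0) and 0.84 for Sdc2 (unadjusted p = 0.0724, FDR 1.0), and 0.338 and 0.628 were the FDRs with the block.

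Markers of several glial types were also lower in KA glia. The astrocytic sum was 2337, 1669 and 2420 CPM in SH glia and 1609, 777 and 942 CPM in KA glia, and that of 4 oligodendrocyte precursor markers 1240, 1013 and 1662 CPM against 604, 400 and 631 CPM. Neither pair of ranges overlapped. The oligodendrocytic sum was 22860, 11620 and 24420 CPM in SH glia and 9441, 6276 and 11760 CPM in KA glia, and the microglial sum 1520, 947 and 2192 CPM against 674, 916 and 1398 CPM, both with overlap. Of the markers of these 4 types, Aldoc, Cspg4 and P2ry12 passed the threshold, all downwards. The part of these shifts in Gpc5 and Sdc2 was not tested, and in such bulk libraries fewer nuclei of a type and less RNA per nucleus cannot be told apart.

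**Figure D2:**
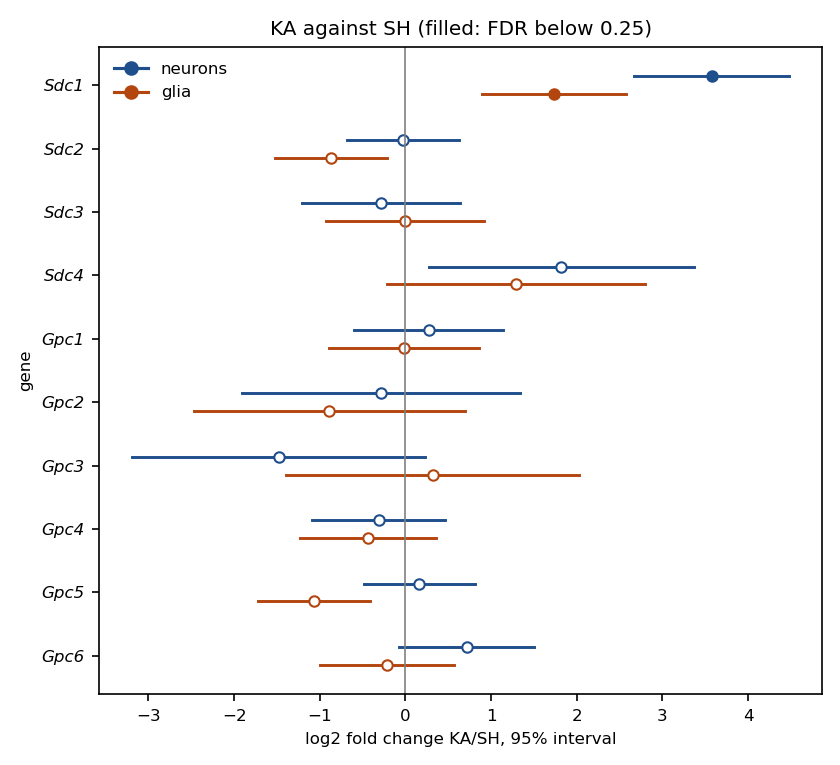
LogFC of KA against SH with its 95% interval for each gene in neurons (blue) and glia (orange). Filled points passed an FDR of 0.25 without the block. Only those of Sdc1 are filled, at 3.58 and 1.73, while the intervals of Sdc2 and Gpc5 in glia and of Sdc4 in neurons leave out 0 without passing the adjusted threshold.

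Among the remaining members, Gpc3 (chromosome X from 52272426 to 52613950), a glypican that binds Hedgehog ligands, was at 9.81, 5.56 and 4.86 CPM in SH neurons and at 2.56, 2.81 and 1.86 CPM in KA neurons. The groups did not overlap (logFC -1.48, standard error 0.81, FDR 1.0, and 0.238 with the block), at 30 to 162 reads per library. Gpc4 (chromosome X from 52053021 to 52165252), a glypican known to be released by astrocytes and to promote excitatory synapses, was at 52.4, 47.5 and 69.4 CPM in SH neurons and at 44.0, 44.9 and 47.3 CPM in KA neurons. These ranges were separated by less than 1 CPM, and the logFC was -0.31 (95% interval -1.10 to 0.47). Gpc6 (chromosome 14 from 116925315 to 117976544), also known as a synapse-promoting glypican of astrocytes, had 12.2, 17.4 and 21.8 CPM in SH and 19.1, 31.1 and 34.6 CPM in KA neurons, with overlap (logFC 0.72, 95% interval -0.07 to 1.51, FDR 1.0).

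Counted by separation, 1 of 10 members was higher in every KA library than in every SH library of neurons (Sdc1) and 2 were lower (Gpc3 and Gpc4), where 5.27% and 4.45% of all genes tested were. In glia 2 were higher (Sdc1 and Sdc4) and 2 lower (Sdc2 and Gpc5), where 3.61% and 3.0% of all genes tested were. With the replicate block, 2 members passed upwards (Sdc1 and Sdc4) and 1 downwards (Gpc3) in neurons, beside 1.94% and 1.11% of all genes tested. In glia the block called Sdc1 and Sdc4 upwards and Sdc2 and Gpc5 downwards, beside 3.47% and 4.17%.

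Sdc3 (chromosome 4 from 130792537 to 130826319) and Gpc1 (chromosome 1 from 92831645 to 92860779) did not pass for KA against SH in either fit. Sdc3, which binds pleiotrophin on axons, was at 49.4, 139 and 149 CPM in SH neurons and at 86.1, 86.4 and 105 CPM in KA neurons. In glia it ranged from 135 to 298 CPM in SH and was at 205, 171 and 303 CPM in KA. The ranges overlapped in both cell types, and the logFC was -0.29 (95% interval -1.21 to 0.64) and -0.01 (95% interval -0.93 to 0.91). Gpc1 was at 114, 138 and 232 CPM in SH and at 184, 170 and 229 CPM in KA neurons, and at 65.0, 124 and 148 CPM in SH and 77.4, 92.9 and 163 CPM in KA glia. Its logFC was 0.27 (95% interval -0.61 to 1.14) and -0.02 (95% interval -0.89 to 0.86). These intervals allow changes in either direction. Of the exon bases of Sdc3, 7.73% also lie in exons of the other strand (Gm12970 and Gm26716), and of those of Gpc1 18.9% do (Ankmy1), and the counting did not use strand.

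Gpc2 (chromosome 5 from 138273655 to 138280005), a glypican of developing neurons, had few reads, from 3 to 65 in a library of neurons and from 40 to 654 in glia. Its logFC was -0.28 (95% interval -1.90 to 1.34) in neurons and -0.89 (95% interval -2.47 to 0.69) in glia, and SH glia replicate 3, with 19.5 CPM against 5.15 and 4.87 CPM in the other pools, set the second value. Of its exon bases, 55.6% are shared with Gm43720 on the same strand, where the counting left reads out, so its levels are uncertain.

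Levels of different genes were compared per kb of exon. In SH neurons the order was Gpc1 (31.3 ± 12.1 CPM per kb, SD, n = 3), Gpc4 (21.3 ± 4.34), Sdc3 (18.8 ± 9.18) and Sdc2 (8.68 ± 2.12), followed by Gpc5, Gpc6, Gpc3, Sdc4, Sdc1 and Gpc2 between 3.48 and 0.376 CPM per kb. Neighbours in this order overlapped in their 3 libraries except for the step from Sdc2 to Gpc5. In KA neurons Sdc1 moved from place 9 to place 4, at 8.74 ± 3.42 CPM per kb, overlapping Sdc2 (8.48 ± 0.799) just under it. In SH glia Sdc3 (38.0 ± 13.99), Gpc1 (21.8 ± 8.30) and Sdc4 (21.1 ± 3.06) led and overlapped each other, before Gpc5 (15.3 ± 1.11) and Sdc2 (13.5 ± 2.88). In KA glia Sdc4 (51.7 ± 18.7) stood first, overlapping Sdc3 (37.8 ± 11.5), and Gpc5 had 7.34 ± 2.12 CPM per kb. With the longest transcript as length the first 4 members in SH neurons were the same, with Sdc3 before Gpc4, and so were the first 3 in KA glia. In SH glia that length put Gpc5 (24.1 ± 1.75 CPM per kb) before Sdc4 (21.9 ± 3.17), behind Sdc3 and Gpc1.

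Within a family, the levels per kb can be read as shares. Sdc1 made up 2.47%, 3.22% and 1.69% of the syndecan level in SH neurons and 19.3%, 23.9% and 21.9% in KA neurons. Its share in glia was 2.27%, 2.26% and 1.41% in SH and 2.99%, 6.87% and 4.92% in KA. In glia the share of Sdc4 was 36.9%, 24.7% and 25.5% in SH and 57.8%, 43.6% and 48.9% in KA, and that of Sdc2 was 25.7%, 14.9% and 15.3% against 8.05%, 8.23% and 6.01%. Gpc1 was the leading glypican in 11 of 12 libraries. The exception was SH glia replicate 1, where Gpc5 had 45.4% and Gpc1 34.8%. In KA glia the share of Gpc5 was 28.9%, 18.3% and 12.5%.

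**Figure D3:**
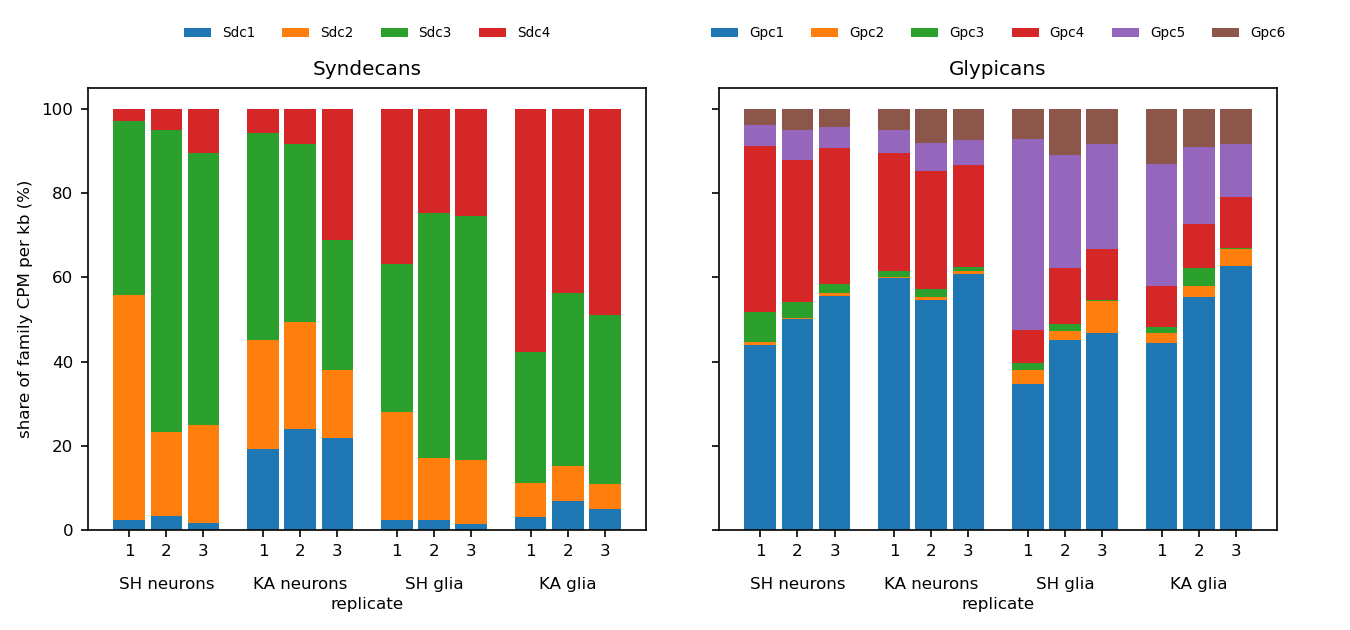
Share of each gene in the summed CPM per kb of exon of its family (stacked bars, in percent) in the 12 libraries. The Sdc1 segment is 1.69% to 3.22% in SH neurons and 19.3% to 23.9% in KA neurons, and the Sdc4 segment is the largest in each KA glia library.

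NeuN+ and NeuN- nuclei differed in the levels of some members. Gpc4 was higher in neurons in both treatments. In SH it was at 7.64, 18.6 and 19.8 CPM in glia against the 47.5 to 69.4 CPM given for neurons (logFC 1.87, standard error 0.38, FDR 0.00388), and in KA at 8.60, 9.06 and 16.4 CPM in glia (logFC 2.00, standard error 0.39, FDR 0.0029). Neurons and glia were separated in either treatment. The level of Gpc4 in glia was 14.6% to 39.2% of that in neurons of the same SH pool, beside 11.0% to 29.3% for the neuronal markers. Without both low-input libraries the call was lost in SH, and without KA glia replicate 1 or 2 it was lost in KA.

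Sdc4, Gpc5 and Gpc2 were lower in neurons than in glia in SH. The logFC was -3.33 for Sdc4 (standard error 0.77, FDR 0.0091), -2.14 for Gpc5 (standard error 0.32, FDR 0.000431) and -2.62 for Gpc2 (standard error 0.79, FDR 0.043). In KA only Sdc4 passed, with -2.80 (standard error 0.75, FDR 0.023), a call that was lost without KA neurons replicate 1 or 2. Gpc5 was at -0.91 in KA (standard error 0.31, FDR 0.0816). The call of Gpc2 was lost without SH glia replicate 3 and without any 1 of the SH neurons libraries.

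By count, 1 member was called higher and 3 lower in NeuN+ in SH, where 6.05% and 4.67% of all genes tested were, and 1 higher and 1 lower in KA, where 5.88% and 3.98% were. With the pool as a block, 2 were higher (Gpc3 and Gpc4) and 6 lower (Sdc1 to Sdc4, Gpc2 and Gpc5) in SH, beside 14.2% and 7.56% of all genes tested. In KA the block gave 3 higher (Sdc1, Gpc1 and Gpc4) and 4 lower (Sdc3, Sdc4, Gpc2 and Gpc5), beside 14.1% and 6.65%. Another scaling, by size factors in place of TMM, moved the median logFC of all genes from 0.01 to -0.14 in SH and from -0.24 to -0.39 in KA. Of all calls in SH, 56.4% were higher in NeuN+ with TMM and 45.5% with size factors. No member's logFC changed sign, and with size factors Gpc4 was at 1.68 in SH and 1.84 in KA, and Sdc4 at -3.51 and -2.98.

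**Figure D4:**
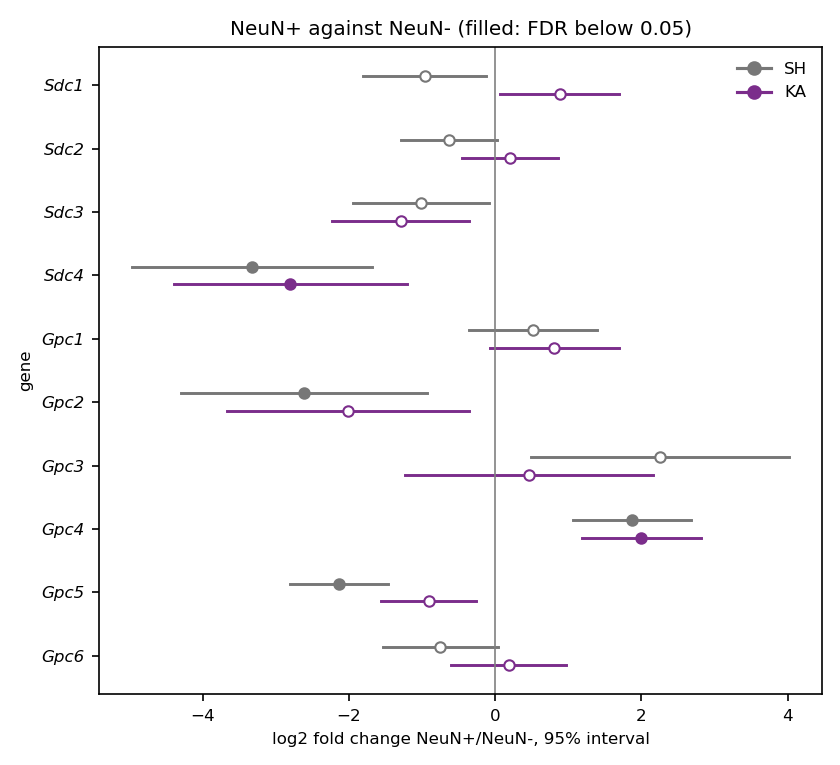
LogFC of NeuN+ against NeuN- with its 95% interval for each gene in SH (grey) and KA (purple). Filled points passed an FDR of 0.05 without the block. Gpc4 lies to the right in both treatments (1.87 and 2.00), Sdc4 to the left in both (-3.33 and -2.80), and Sdc1 lies at -0.96 in SH and 0.88 in KA.

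The genes whose pattern over the 12 libraries was most like that of Sdc1 were, among 14945 tested genes with a mean of at least 5 CPM, Fam129b (Pearson r = 0.959 of log2(CPM + 1)), Trh (r = 0.945), Tpbg (r = 0.935), Nedd9 (r = 0.925) and Pappa (r = 0.923). This is a description over 12 libraries that share pools, depth and the contrast of KA with SH. Trh, the precursor of thyrotropin releasing hormone, had a mean of 1.00 CPM in SH neurons and 71.1 CPM in KA neurons, and of 1.22 and 12.6 CPM in glia. Pappa, a protease of insulin-like growth factor binding proteins, went from 5.94 to 48.3 CPM in neurons (logFC 3.02, edgeR FDR 0.0251) and from 5.77 to 18.2 CPM in glia (logFC 1.66, FDR 0.235). Fam129b, the most alike, had a logFC of 1.34 in neurons (FDR 0.278) and of 0.94 in glia (FDR 0.652) and passed in neither.

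Genes that build, edit, cut or bind the chains were taken from 9 lists with 72 genes in all, of which 71 were tested (the protease Mmp7 was not). In neurons 2 were called higher and 1 lower, where 0.279% and 0.0612% of all genes tested were. In glia 3 were called higher and 2 lower, beside 0.442% and 0.306%. The lists were chosen with earlier results of these data known, so setting these counts beside the shares is no test. With the replicate block these counts were 10 higher and 5 lower in neurons, beside 1.94% and 1.11% of all genes tested, and 9 higher and 12 lower in glia, beside 3.47% and 4.17%. DESeq2 called 5 higher and 3 lower in neurons, beside 292 and 140 of all 37598 genes tested. In glia it called 8 higher and 5 lower, beside 364 and 602. List genes called with the block or DESeq2 alone are named below after their values were seen. The median logFC of the 71 list genes tested was -0.05 in neurons, beside 0.00 over all genes tested, and 0.01 in glia, beside 0.14.

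Of the 7 enzymes of the linker region that joins the chain to the protein, 0 were called in either cell type by edgeR or DESeq2, and 0 had an unadjusted p under 0.05. With the block Xylt1, a xylosyltransferase that starts the linker, was called higher in neurons (logFC 1.11, FDR 0.0523) and lower in glia (logFC -0.72, FDR 0.21), and the difference between the cell types was called too (1.83, FDR 0.173). Of the 5 enzymes of chain initiation and elongation, Extl1 fell in glia. Its level was 23.6, 34.2 and 28.3 CPM in SH glia and 13.0, 14.2 and 7.17 CPM in KA glia (logFC -1.33, standard error 0.34, edgeR FDR 0.212). In neurons it was at 77.8, 110 and 108 CPM in SH and at 55.4, 34.2 and 43.2 CPM in KA (logFC -1.15, FDR 0.511, and 0.0479 with the block). Its relative Extl2 was also called lower in neurons with the block (FDR 0.0692), and DESeq2 called both there. The groups were separated in both cell types, but the call in glia was lost in each of the 6 fits without 1 library of glia.

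Of 16 enzymes that epimerise and sulfate the chain, Hs3st1, the 3-O-sulfotransferase that makes the antithrombin binding site, fell in glia. It was at 104, 97.4 and 71.7 CPM in SH glia and at 39.98, 29.9 and 29.9 CPM in KA glia (logFC -1.45, standard error 0.35, FDR 0.15), without overlap. The call held in 1 of the 6 fits that left out a glia library. In neurons its logFC was -0.72 (FDR 1.0), and 0 of the 16 were called there, with 1 higher and 1 lower at an unadjusted p under 0.05 and 0 by DESeq2. The block called Hs3st2 higher (FDR 0.04) and Ndst4 lower (FDR 0.173) in neurons, and Ndst1, an N-deacetylase and N-sulfotransferase, higher in glia (logFC 1.56, FDR 0.00768), where DESeq2 called it too.

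Of the 4 genes that remodel chains outside the cell, the 6-O-endosulfatase Sulf1 rose in neurons. It was at 10.5, 10.2 and 10.4 CPM in SH neurons and at 22.0, 44.3 and 33.1 CPM in KA neurons (logFC 1.68, standard error 0.32, FDR 0.0742). The SH libraries lay close together and every KA library lay above them, but the call held in 1 of the 6 fits that left out a library of neurons. In glia Sulf1 was at 16.6, 16.4 and 18.1 CPM in SH and at 33.4, 27.7 and 41.3 CPM in KA (logFC 1.01, FDR 0.442, and 0.0726 with the block). DESeq2 called it in glia too. The difference between the cell types was 0.67 (unadjusted p = 0.148). The block also called Sulf2 higher in neurons (FDR 0.16) and the heparanase Hpse higher in glia (FDR 0.23).

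Of 6 enzymes that release the outer parts of these proteins, 5 were tested and 0 called in either cell type by edgeR, with or without the block, or by DESeq2, with 0 at an unadjusted p under 0.05 (DESeq2 gave Notum no p value). The sheddases Adam10 and Adam17 had logFC of -0.29 and -0.02 in neurons and -0.25 and 0.17 in glia. Of 7 proteins that bind syndecan tails, among them Sdcbp (syntenin) and Cask, 0 were called in either cell type by either tool, with 1 at an unadjusted p under 0.05 in neurons (Ezr, chosen after its value was seen, logFC 0.93) and 0 in glia. With the block Cask was called lower in glia (logFC -0.66, FDR 0.156). Of 7 synaptic proteins that bind glypicans or syndecans, such as Lrrtm4 and Gpr158, 0 were called by edgeR. At an unadjusted edgeR p under 0.05, 2 were higher and 1 lower in neurons and 1 was lower in glia. DESeq2 called 0 of them in neurons and 1 in glia (Ptprd). The block called Lrrtm3 (FDR 0.0754) and Ptprf (FDR 0.0125) higher and Lrrtm4 (FDR 0.0756) lower in neurons, and Ptprd (FDR 0.0055) lower in glia. Of 5 other heparan sulfate proteoglycans, 0 were called by edgeR, with 1 lower in neurons and 1 higher in glia at an unadjusted p under 0.05, and DESeq2 called 0 and 1. The block called 0 in neurons, and in glia Col18a1 higher (FDR 0.0282) and Agrn, which encodes agrin, lower (logFC -0.76, FDR 0.0848).

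Of 15 secreted ligands of heparan sulfate, 1 was called higher and 1 lower in neurons and 3 higher and 0 lower in glia. At an unadjusted p under 0.05 there were 4 higher and 1 lower in neurons and 5 higher and 4 lower in glia, and DESeq2 called 4 and 1 in neurons and 5 and 2 in glia. With the block 4 were called higher and 1 lower in neurons, and 5 higher and 5 lower in glia. Tnc, which encodes the matrix protein tenascin C, rose in both cell types. It was at 9.08, 8.98 and 4.78 CPM in SH neurons and at 31.9, 26.8 and 42.9 CPM in KA neurons (logFC 2.16, standard error 0.38, FDR 0.0527), and at 31.2, 25.2 and 17.1 CPM in SH glia and 96.8, 80.6 and 150 CPM in KA glia (logFC 2.16, standard error 0.38, FDR 0.0324). Fn1, which encodes fibronectin, rose in glia from 18.3, 21.4 and 11.5 CPM to 60.1, 88.5 and 220 CPM (logFC 2.85, standard error 0.48, FDR 0.0284). In neurons Fn1 was at 57.1, 53.2 and 79.2 CPM in SH and at 61.6, 111 and 119 CPM in KA (logFC 0.62, FDR 1.0). In either cell type every KA library of Tnc lay above every SH library, and in glia this also held for Fn1.

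Hbegf, a heparin-binding ligand of the EGF receptor, rose in glia from 33.1, 13.4 and 12.7 CPM to 79.3, 46.8 and 92.6 CPM (logFC 1.89, standard error 0.46, FDR 0.175), a call that held in 2 of the 6 fits that left out a glia library. Cxcl12, a chemokine held on heparan sulfate, fell in neurons from 73.9, 30.01 and 47.9 CPM to 14.6, 18.5 and 9.36 CPM (logFC -1.84, standard error 0.37, FDR 0.0943). It was at 47.6, 35.6 and 44.7 CPM in SH glia and 40.41, 40.2 and 52.4 CPM in KA glia (logFC 0.06, 95% interval -0.70 to 0.81). In neurons the sum of 6 pericyte and fibroblast markers was 104, 67.2 and 67.3 CPM in SH and 47.4, 49.8 and 41.5 CPM in KA. Of these markers 0 were called there, and the sum of 5 endothelial markers overlapped between SH and KA. The part of such RNA in the lower levels of Cxcl12 and Gpc3 in KA neurons was not tested. The difference of the KA effect between the cell types had an FDR of 1.0 for Cxcl12 and for Fn1 with edgeR, and of 0.0988 and 0.0845 with the pool as a block. Fits without 1 library kept the call of Cxcl12 and of Tnc in neurons in 3 of 6, and those of Tnc and Fn1 in glia in 6 of 6.

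Among calls not made without it, the block placed Hbegf (logFC 1.35, FDR 0.0497), Vegfa, the vascular endothelial growth factor (logFC 1.75, FDR 0.000652), and Thbs1, which encodes thrombospondin 1 (logFC 2.88, FDR 0.00474), higher in neurons, as DESeq2 did. In glia it called Fgf2 (FDR 0.129) and Thbs1 (logFC 2.87, FDR 0.0055) higher. Lower in glia were Ptn, which encodes pleiotrophin (logFC -1.69, FDR 0.00111), Vtn (FDR 0.0273), Fgf1 (FDR 0.114), Mdk (FDR 0.224) and Slit1 (FDR 0.248). DESeq2 called Fgf2, Thbs1, Ptn and Vtn of these in glia. The difference between the cell types was also called with the block for Fgf1 (FDR 0.101) and Vegfa (FDR 0.185).

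**Figure D5:**
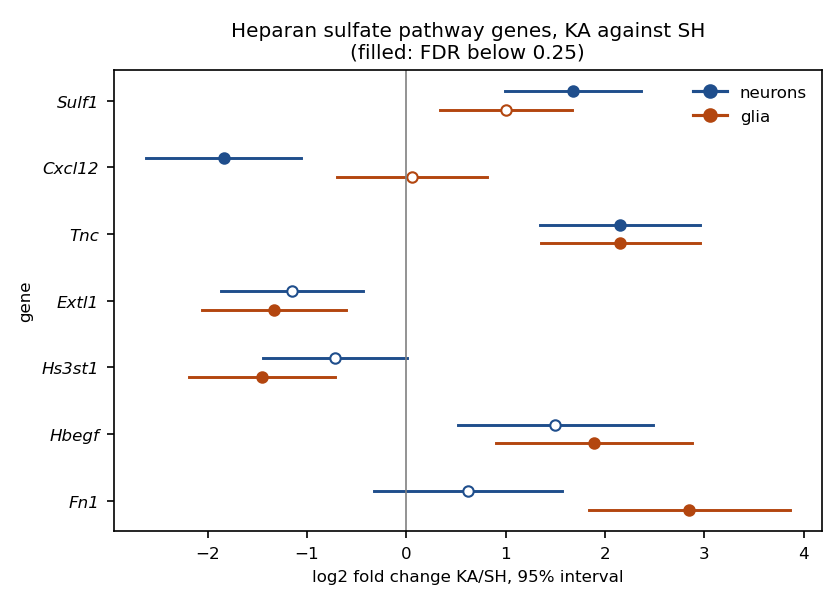
LogFC of KA against SH with its 95% interval in neurons (blue) and glia (orange) for the 7 genes of the heparan sulfate lists that passed an FDR of 0.25 in either without the block (filled points). Tnc is called in both, at 2.16 and 2.16, Sulf1 and Cxcl12 in neurons, and Extl1, Hs3st1, Hbegf and Fn1 in glia.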

How the data were processed

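The 12 mRNAseq libraries were used; RRBS samples were not analysed here. The authors trimmed reads with Trim Galore 0.4.3, aligned them to mm10 with Rsubread and deposited counts of uniquely mapped reads per gene, made by featureCounts with default settings (no strand, reads over several genes left out) and GENCODE M16. Total counts ranged from 7769400 to 40364768, which bounds the precision of low genes. Pools are separate mice. The paper states that libraries were sequenced as single reads on a NextSeq or as paired ends on a HiSeq. It does not name the platform of each library.

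Symbols, positions and exon lengths came from GENCODE M21; 105 genes without a symbol were left out. Counts were fitted with edgeR 4.0.16 in R 4.3.3 (filterByExpr with a minimum count of 10 and a total of 15, TMM, glmQLFit with legacy=TRUE, 4 group means over 12 libraries, glmQLFTest, Benjamini-Hochberg adjustment); each standard error is |logFC| divided by √F. DESeq2 1.42.0, other filters, scaling and thresholds, separate fits, blocks and left-out libraries were alternatives, and the fit was tested on simulated data. The study's methods treat the cell types separately; the common fit shares 1 estimate of the spread.

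Same-numbered KA and SH libraries deviated together (correlation across genes of deviations from group means: 0.399, 0.264 and 0.551 in neurons, 0.457, 0.543 and 0.764 in glia for replicates 1, 2 and 3), as did both fractions of a pool (0.293 to 0.649), so replicate and pool blocks were fitted. The members and lists were chosen with earlier results of these data known. Named beside the members were list genes past FDR 0.25 in KA against SH (at most 6 per list and direction) and the 5 genes most like a called member, by Pearson r. The values of a list gene that is among the counts are not reported here. Promoters came from RefSeq, GRCm38.p6. Figures used matplotlib 3.10.9 (Python 3.11.15).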

Additional observations from a re-analysis of the deposited data

How the results depend on the processing

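Sdc1 in neurons kept its direction and its call in every alternative, and 3 libraries per group, low counts of Gpc2 and Gpc3 and 2 low-input libraries limit the rest. The replicate block changed the calls given in the text (members higher and lower: 2 and 1 in neurons, 2 and 2 in glia, 1 and 0 for the difference between cell types, where Sdc1 had 1.86, 2 and 6 for NeuN+ against NeuN- in SH, 3 and 4 in KA) and no other call of a member. In glia, Sdc1 was not called (0 members higher) at FDR 0.05 (logFC 1.73), without both low-input libraries (1.69) or without all replicate 3 libraries (1.38, a setting added after seeing the data), and leaving out 1 library gave 0 to 1 members higher, with Sdc1 between 1.49 and 1.94. Members lower in glia were 2 with at least 10 counts in every library, 1 with edgeR 4 and 2 with DESeq2. Over all genes, 760 of 18632 were lower with at least 10 counts. Of 37598 genes, 228 were lower with edgeR 4 and 602 with DESeq2.

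For NeuN+ against NeuN- in SH, members higher were 2 with edgeR 4 and DESeq2 and 0 on autosomes (which drop Gpc3 and Gpc4) or without both low-input libraries. Of all 37598 genes, 2774 were higher with edgeR 4 and 2499 with DESeq2. Members lower were 6 with at least 10 counts in every library, which drops Gpc2 and Gpc3, and 2 to 5 without 1 library. With at least 10 counts, 2751 of all 18632 genes were lower. With DESeq2, which gave Sdc4 no p value, 4 members were lower (Sdc1, Sdc3, Gpc2 and Gpc5), beside 2586 of all 37598 genes. In KA, members higher were 0 on autosomes and 0 to 1 without 1 library. Members lower in KA were 0 at FDR 0.01, 2 with size factors and 0 to 1 without 1 library. They were 3 with at least 10 counts in every library and with DESeq2. Of all 37598 genes, 939 were lower at FDR 0.01, 1660 with size factors and 2275 with DESeq2. With at least 10 counts, 2470 of 18632 genes were lower.

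Only logFC values of uncalled members turned sign; the cause was not tested. Beyond single left-out libraries these were, in neurons, Sdc2 (0.01 with at least 10 counts in every library); in glia, Sdc3 (0.12 in separate fits, 0.02 with the block and with at least 10 counts), Gpc1 (0.11 in separate fits) and Gpc3 (-0.17 with the block, -1.05 without both low-input libraries); for the difference between cell types, Sdc4 (-0.12 without all replicate 3 libraries); for NeuN+ against NeuN-, Gpc1 in SH (-0.03 without both low-input libraries) and in KA Sdc2 (-0.12 with at least 10 counts, -0.05 without both low-input libraries) and Gpc6 (-0.15 and -0.10). Without 1 library, ranges that crossed 0 were -0.21 to 0.14 (Sdc2), -0.68 to 0.30 (Gpc2) and -0.02 to 0.31 (Gpc5) in neurons; -0.29 to 0.23 (Sdc3), -0.41 to 0.23 (Gpc1), -1.47 to 0.09 (Gpc2) and -1.03 to 0.86 (Gpc3) in glia; -0.63 to 0.00 (Sdc3), -1.17 to 1.46 (Sdc4), -0.37 to 1.20 (Gpc2) and -0.10 to 0.50 (Gpc4) for the difference; -0.09 to 0.78 (Gpc1) in SH; and -0.05 to 0.30 (Sdc2), -0.07 to 1.72 (Gpc3) and -0.10 to 0.42 (Gpc6) in KA.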
